A study of Mus musculus with 12 samples.

Results

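The 10 genes described here encode the vestigial-like cofactors Vgll2, Vgll3 and Vgll4, the co-activators Yap1 and Wwtr1, the transcription factors Tead1, Tead2, Tead3 and Tead4, and the kinase Lats2. They are 10 of the 30176 genes with a transcript cluster of 1 gene symbol on the array, and each of the 10 had 1 such cluster. They were chosen by symbol after the differences between DHT-treated and placebo-treated mice on these same arrays, that of Vgll3 in fat above all, were known. In gonadal fat of DHT-treated mice Vgll3 rose 4.30-fold, by 2.10 on the log2 scale (SE 0.20, n = 3 per group), and Wwtr1 rose 1.25-fold, by 0.32 (SE 0.08), a call that was lost when any 1 of the 6 fat arrays was left out. In the ovaries no member passed the test, and the effect of DHT on Vgll3 differed between the tissues.

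The Hippo pathway is a chain of kinases that holds back growth: the MST kinases activate the LATS kinases, and these phosphorylate the co-activators YAP (gene Yap1) and TAZ (gene Wwtr1), which then stay in the cytoplasm. Unphosphorylated YAP and TAZ enter the nucleus and act through the TEAD proteins, which bind DNA but need a cofactor to activate transcription. The vestigial-like proteins bind TEAD proteins as well, and in fat TAZ is known as a brake on the adipocyte regulator PPARG, while in the ovary Hippo signalling is known for its part in follicle growth.

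DHT (dihydrotestosterone) is an androgen that aromatase cannot convert to oestrogen. Female C57BL/6J mice received, at 25 days of age, a silicone capsule with 5 mg of DHT (DHT-treated) or an empty capsule (placebo-treated), and ovaries and gonadal fat pads were collected about 60 days later. Total RNA of 3 ovaries or fat pads per group was hybridised to Affymetrix mouse transcriptome arrays, 1 array per sample and 12 in all. The groups carried no transgene or mutant allele. The labels call the samples of a group biological replicates and do not say whether an ovary and a fat pad with the same number came from 1 mouse.

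Each value is the deposited log2 signal of a transcript cluster, the set of probes for 1 transcript locus. The array medians were 4.35 to 4.43 in the ovary and 3.30 to 3.52 in gonadal fat, so levels were compared within a tissue, or between tissues as percentiles within an array. Every fat array held the adipocyte marker Adipoq at 9.43 to 9.97, and the granulosa marker Fshr there was at 1.96 to 2.17. The ovary arrays DHT 3 and placebo 2 stood apart in the mean of 4 oviduct markers, at 7.85 and 8.25. DHT 2 lay between, at 6.17, above the 4.40 to 4.55 of the remaining ovaries, and it stays in the fits that leave out DHT 3 and placebo 2. Among the fat arrays, placebo 1 had the highest mean of 5 smooth muscle markers (9.96 against 7.35 to 8.69) and placebo 3 the highest mean of 5 skeletal muscle markers (7.09 against 4.91 to 5.49). Adipocyte markers (9 of 9 tested, 3 rose) had a mean of 10.4 to 10.5 in fat of DHT-treated mice and 9.86 to 9.96 in fat of placebo-treated mice, and in the ovary 6.13 to 6.55 and 6.70 to 7.19. The endothelial markers in fat (5 tested, 2 rose) had means of 8.31 to 8.50 and 8.05 to 8.24, and the mesothelial markers (5 tested, 1 fell) 5.64 to 6.33 and 6.40 to 6.83. The widest shift was in the ovary, where 4 of 5 corpus luteum markers fell (Star, Cyp11a1, Ptgfr and Akr1c18) and the mean of the 5 was 6.88 to 7.37 with DHT and 9.21 to 11.2 with placebo, highest in placebo 3. From arrays of bulk tissue alone, fewer cells of a type and less RNA per cell cannot be told apart. In ovary sections the paper describes no corpora lutea after DHT treatment. The part of the corpus luteum shift in the ovarian results and in the differences between tissues was not tested. Nor was that of the adipocyte, endothelial and mesothelial shifts in fat. With the mean of 4 adipocyte markers as a covariate, fitted in the ovary only, ovarian Vgll3 differed by 0.65 (adjusted p = 0.487, limma). Values without the arrays that stood apart are given below.

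In the deposited table the fat values of 26501 of 65929 transcript clusters (40.2%), on chromosomes 10 to 19, appeared beside the names of other clusters, displaced by 58 places for Vgll2, Vgll3, Tead3 and Lats2. Over these clusters the mean in fat and the mean in ovary correlated at r = 0.0139 as deposited and at 0.946 after the values were re-paired with their names, against 0.943 over the other 39428 (a correlation across clusters, which are not independent). Adipoq had a fat mean of 2.26 as deposited and 9.67 after re-pairing. All fat values given below, of the 4 members and of other genes on these chromosomes, are re-paired ones. Ccdc80, Igfbp3 and Sav1, described below, gave no fat result in the deposited order. In the deposited order the row named Vgll3 held 2.33, 2.97 and 2.80 in fat of DHT-treated mice and 2.82, 3.02 and 2.91 in fat of placebo-treated mice, and it was too dim to be tested.

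**Figure D1:**
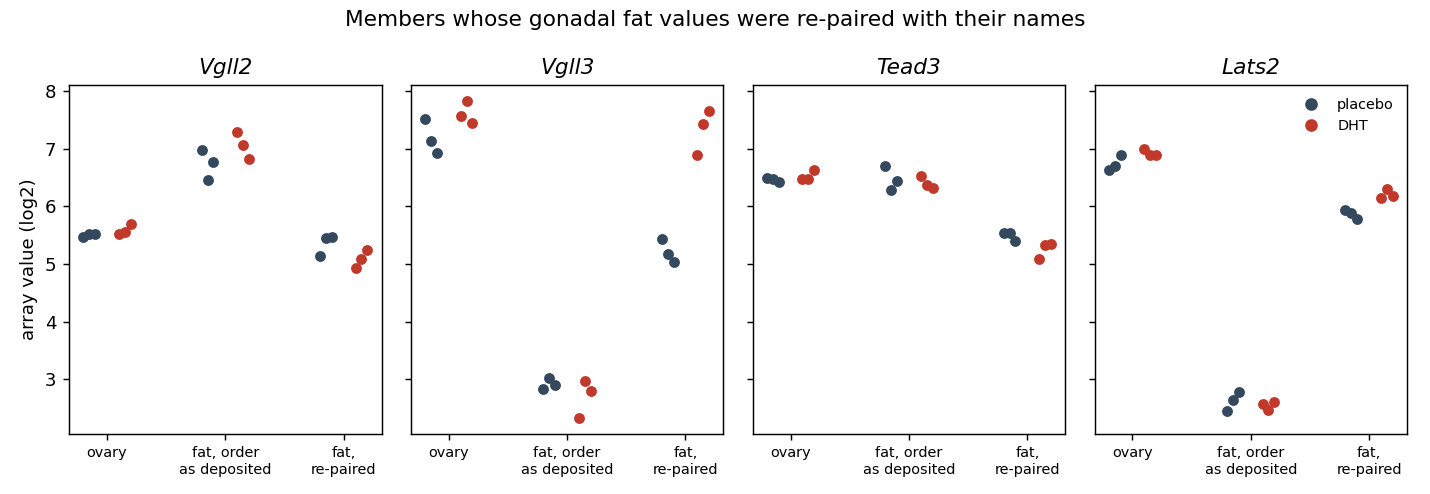
Log2 array values (y axis) of the 4 members on displaced chromosomes, for ovary, for fat in the deposited order and for fat after re-pairing. Points are single arrays, dark for placebo-treated and red for DHT-treated mice, 3 each. Vgll3 in fat lay between 2.33 and 3.02 in the deposited order and between 5.04 and 7.66 after re-pairing.

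A gene was tested in a tissue where it lay above the array median in at least 3 of the 6 arrays, which all 10 members did in all 12 arrays, at percentiles from 67.8 to 96.1. Differences were tested with limma, with p-values adjusted over all genes tested in the tissue by the Benjamini-Hochberg method, and a gene was called at an adjusted p of at most 0.10. In gonadal fat 745 of 19251 genes (3.87%) were called, 2.65% higher and 1.22% lower, and 2 of the 10 members were called, both higher. In the ovary 241 of 19118 genes (1.26%) were called, 0.544% higher and 0.717% lower, and no member was, although 3 members (Vgll3, Wwtr1 and Tead1) had an unadjusted p under 0.05 with limma. The share of all genes under that unadjusted cut is not given here, so this count has no background beside it. SAM, another test for arrays, called 0 genes of any kind in the ovary. With its 20 permutations SAM cannot give a value below 0.10, the threshold itself, so a lack of SAM calls says little about a gene. The members were proposed with results of these arrays known, so their counts are descriptions.

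Vgll3 (transcript cluster TC1600000797.mm.1) lies at chr16:65815189-65866368 (GRCm38.p6) on the plus strand. Its protein binds TEAD proteins, and in mouse preadipocytes it is known to hold back adipocyte differentiation. The 250 bases before its annotated start, chr16:65814939-65815188, are shown because Vgll3 was the member that moved most, with capitals marking the 6 letters CATTCC, the core that TEAD proteins bind.
Vgll3: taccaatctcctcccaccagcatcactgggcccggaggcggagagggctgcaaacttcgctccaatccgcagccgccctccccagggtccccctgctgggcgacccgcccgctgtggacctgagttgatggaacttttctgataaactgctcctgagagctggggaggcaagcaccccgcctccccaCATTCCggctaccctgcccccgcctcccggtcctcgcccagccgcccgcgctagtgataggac
The match began at position -63, counted from the start. The promoter windows, RefSeq sequence of GRCm38.p6, run from 250 bases before to 50 bases after a start, and 14.7% of all 32851 windows hold CATTCC or its reverse complement GGAATG.

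In gonadal fat the Vgll3 values were 6.89, 7.42 and 7.66 in DHT-treated mice and 5.44, 5.17 and 5.04 in placebo-treated mice. The groups did not overlap, and the gap between them was wider than the range within either. The means were 7.32 ± 0.40 and 5.22 ± 0.20 (SD, n = 3 each), a difference of 2.10 on the log2 scale with a 95% interval of 1.65 to 2.55 (limma, adjusted p = 0.00353). Within its array Vgll3 stood at the 91.2 to 95 percentile in fat of DHT-treated mice and at the 74.8 to 79.4 percentile in fat of placebo-treated mice. Among the 19251 genes tested in fat it was number 7 by the size of an upward difference and number 22 by p. Without placebo 1, the array with most smooth muscle transcripts, the difference was 2.21, and without placebo 3, the array with most skeletal muscle transcripts, 2.01 (adjusted p = 0.00818 and 0.0218, limma).

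Vgll3 in the ovary had values of 7.57, 7.83 and 7.44 in DHT-treated mice and 7.51, 7.13 and 6.92 in placebo-treated mice. The groups overlapped, since placebo 1 lay above DHT 3. The difference of 0.43 (95% interval 0.02 to 0.83) did not pass the test (adjusted p = 0.348, limma). Ovarian Vgll3 stood at the 89.3 to 91.6 percentile in DHT-treated and at the 84.4 to 89.5 percentile in placebo-treated mice, so that the fat of placebo-treated mice was the group where it stood lowest within its arrays. The effect in fat exceeded that in the ovary by 1.68 (SE 0.28, 95% interval 1.06 to 2.30, adjusted p = 0.00999, limma interaction over 12 arrays). Of the 18080 genes tested for such a difference 6.14% were called, 4.63% with the larger effect in fat, and 1 of the 10 members, Vgll3, was among them. Without both oviduct-rich ovary arrays the difference of effects was 1.62 (adjusted p = 0.057).

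**Figure D2:**
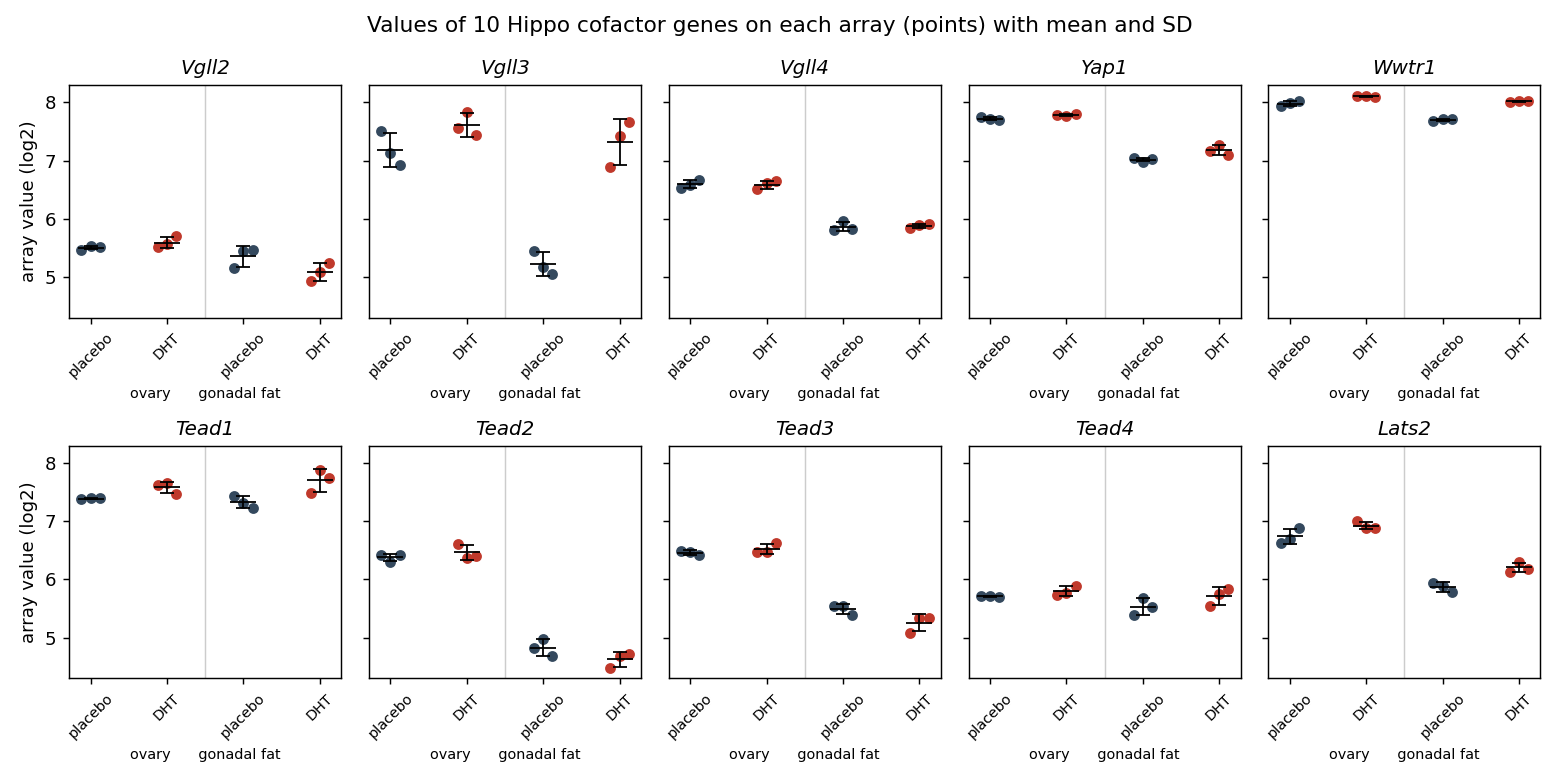
Log2 array value (y axis) of each of the 10 members in ovary and gonadal fat. Points are single arrays of placebo-treated (dark) and DHT-treated (red) mice, 3 per group. Horizontal marks are group means, and vertical bars the SD. Vgll3 in fat lay at 6.89 to 7.66 in DHT-treated and 5.04 to 5.44 in placebo-treated mice, while for Vgll4 the groups overlapped in both tissues.

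Vgll2 and Vgll4 are the other vestigial-like genes of the list. Vgll2, at chr10:52022502-52028471, is known in mice for its part in skeletal muscle differentiation. Its fat values were 4.93, 5.09 and 5.24 with DHT and 5.15, 5.45 and 5.47 with placebo, overlapping, with a difference of -0.27 (95% interval -0.55 to 0.02, adjusted p = 0.337, limma). The values of placebo 2 and placebo 3 were nearly equal, while their means of skeletal muscle markers were 5.17 and 7.09. A part of muscle tissue in these values was not tested. In the ovary Vgll2 ranged from 5.47 to 5.70 over the 6 arrays, with a difference of 0.09 (adjusted p = 0.672). The effects in the 2 tissues had opposite signs and differed by -0.35 (95% interval -0.67 to -0.04), which was not called (adjusted p = 0.209).

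Vgll4, at chr6:114860621-114970007, encodes a protein that competes with YAP for TEAD proteins. It had values of 5.84, 5.89 and 5.91 in fat of DHT-treated mice and 5.81, 5.95 and 5.83 in fat of placebo-treated mice. The groups overlapped there and in the ovary (6.50, 6.61 and 6.64 against 6.53, 6.57 and 6.67). The differences of 0.02 in fat (95% interval -0.18 to 0.21) and -0.01 in ovary (-0.17 to 0.15) did not pass the test (adjusted p = 0.934 and 0.98), and both turned sign under quantile normalization.

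Of the co-activators, Wwtr1 (TAZ, chr3:57455644-57575910) rose in gonadal fat. Its values there were 8.02, 8.02 and 8.03 with DHT and 7.68, 7.71 and 7.71 with placebo, with no overlap. The difference was 0.32 (95% interval 0.14 to 0.50), 1.25-fold, with an adjusted p of 0.0891 (limma). The call stood near the threshold: leaving out any 1 of the 6 fat arrays ended it, with differences of 0.31 to 0.33 and adjusted p from 0.156 to 0.322, and quantile normalization gave 0.19 (adjusted p = 0.354). Ovarian Wwtr1 was 8.12, 8.11 and 8.10 with DHT and 7.93, 7.99 and 8.02 with placebo. These groups did not overlap either, and the difference of 0.13 (95% interval 0.01 to 0.25) had an adjusted p of 0.333.

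Yap1 (chr9:7931999-8004638), whose protein shares its partners with TAZ, differed less. In fat it was 7.16, 7.27 and 7.10 with DHT and 7.05, 6.98 and 7.02 with placebo. The groups did not overlap, and the difference of 0.16 (95% interval -0.04 to 0.36) did not pass the test (adjusted p = 0.398, limma). In the ovary the values were 7.79, 7.76 and 7.80 against 7.75, 7.71 and 7.70, with a difference of 0.06 (95% interval -0.05 to 0.18, adjusted p = 0.68).

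Of the 10 members, 8 had a promoter window, and 6 of these 8 held CATTCC or GGAATG, beside 16.6% of the 27025 genes with a window. The 30 bases around the match are shown for Wwtr1, which rose, and for Yap1, Vgll4 and Tead3, with the 6 letters in capitals, on the gene's own strand.
Wwtr1: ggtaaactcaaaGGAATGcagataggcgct
Yap1: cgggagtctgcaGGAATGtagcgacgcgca
Vgll4: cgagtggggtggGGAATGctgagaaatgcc
Tead3: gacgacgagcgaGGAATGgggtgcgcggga
Tead3: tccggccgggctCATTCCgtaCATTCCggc
These lie on the minus strand at chr3:57576029-57576058, chr9:8004720-8004749, chr6:114969268-114969297, chr17:28350970-28350999 and chr17:28350706-28350735, and the last holds CATTCC in 2 copies. In Lats2 the match began 4 bases after the start, and Vgll2 and Tead2 held none. The letters AGAACA or their reverse complement TGTTCT, the unit that androgen and glucocorticoid receptors bind, were in none of the members' windows and in 19.0% of all windows. A match describes the letters only and was not tested for binding, and members with and without a match were not compared.

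The 4 TEAD genes encode the DNA-binding partners of all these cofactors. Tead1 (chr7:112679356-112906784), known for its part in heart and muscle genes, had fat values of 7.49, 7.88 and 7.75 with DHT and 7.44, 7.32 and 7.24 with placebo. The groups did not overlap, and the difference of 0.37 (95% interval 0.10 to 0.65) did not pass the test (adjusted p = 0.181, limma). In the ovary Tead1 was 7.63, 7.65 and 7.48 against 7.38, 7.40 and 7.40. Again the groups did not overlap, and the difference of 0.20 (95% interval 0.05 to 0.35) had an adjusted p of 0.254.

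Tead3 (chr17:28331671-28350805), known from the placenta, was the member whose fat values lay lower in every DHT-treated mouse. They were 5.08, 5.33 and 5.34 with DHT and 5.54, 5.54 and 5.39 with placebo, a difference of -0.24 (SE 0.10, adjusted p = 0.307, limma). In the ovary the groups overlapped (6.47, 6.47 and 6.62 against 6.50, 6.47 and 6.42, difference 0.06, adjusted p = 0.795). The difference between the effects, -0.30 (95% interval -0.56 to -0.03), was not called (adjusted p = 0.202).

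Tead2 (chr7:45215792-45233468), known from the early embryo, was 4.48, 4.68 and 4.72 in fat of DHT-treated and 4.81, 4.98 and 4.69 in fat of placebo-treated mice. The overlap came from placebo 3, and the difference of -0.20 (95% interval -0.45 to 0.05) had an adjusted p of 0.40. Tead2 stood at the 78.6 to 81.5 percentile in the ovary arrays and at the 69.2 to 73.2 percentile in the fat arrays. Tead4 (chr6:128227143-128300813), known from the trophectoderm, had the reverse order, the 71.2 to 73.7 percentile in ovary and the 78.8 to 83.4 percentile in fat. Its fat values of 5.54, 5.76 and 5.84 in DHT-treated mice overlapped those of 5.38, 5.69 and 5.53 in placebo-treated mice (difference 0.18, adjusted p = 0.484). The ovarian differences of Tead2 and Tead4 were 0.09 and 0.08 (adjusted p = 0.756 and 0.657, limma).

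Lats2 (chr14:57689662-57746212) encodes a kinase that phosphorylates YAP and TAZ and is itself a target gene of YAP. In fat it was 6.14, 6.30 and 6.19 with DHT and 5.94, 5.89 and 5.78 with placebo. The groups did not overlap, and the difference of 0.34 (95% interval 0.13 to 0.55) missed the threshold (adjusted p = 0.12, limma). When all 12 arrays shared 1 estimate of the spread, Lats2 and Tead1 were called in fat as well (adjusted p = 0.0385 and 0.0493). In the ovary Lats2 was 7.00, 6.89 and 6.89 against 6.63, 6.70 and 6.89, the third placebo value lying just under the lowest DHT value, with a difference of 0.19 (95% interval -0.01 to 0.38, adjusted p = 0.399).

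Counted over the 10 members, the DHT mean was the higher one for 9 in the ovary and for 7 in fat, beside 48.4% and 48.6% of all genes tested. The groups did not overlap for 5 members in the ovary, all higher (Yap1, Wwtr1, Tead1, Tead4 and Lats2), where 6.88% of genes lay higher and 13.1% lower without overlap. In fat 5 members lay higher without overlap (Vgll3, Yap1, Wwtr1, Tead1 and Lats2) and 1 lower (Tead3), where 14.5% and 8.23% of genes did (22.8% in either direction). The median log2 difference of the members was 0.09 in the ovary and 0.17 in fat, and that of all genes tested was -0.00 and -0.01. A permutation test of 3 against 3 arrays cannot give a two-sided p below 0.10, so no such p is given for single members.

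**Figure D3:**
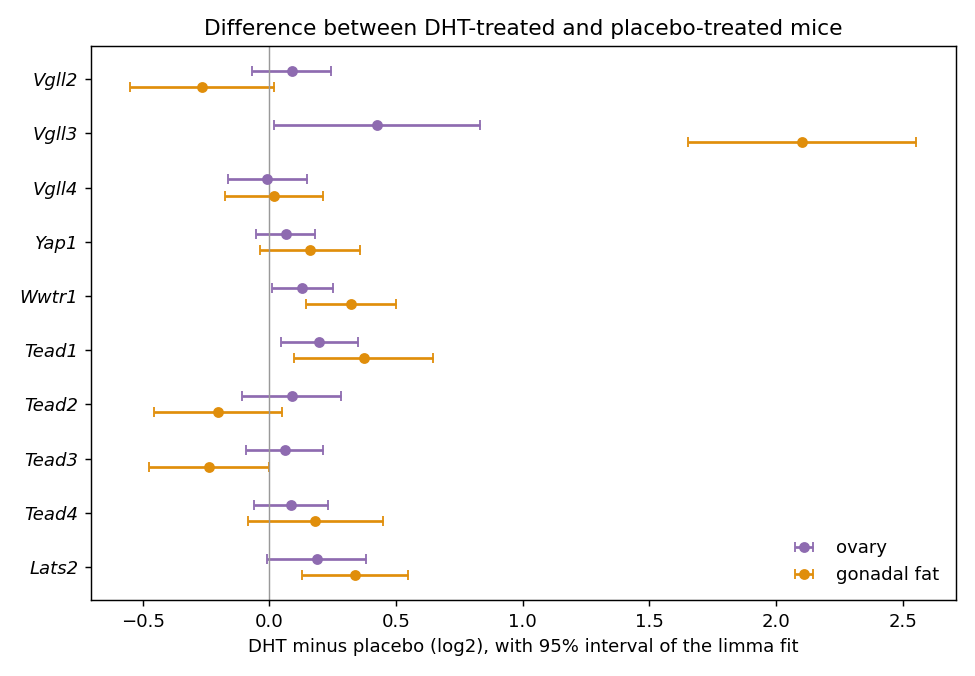
Difference between DHT-treated and placebo-treated mice (log2, x axis) for each member in ovary (purple) and gonadal fat (orange). Points are limma estimates from 3 arrays per group and bars their 95% intervals. In fat Vgll3 stood at 2.10 (1.65 to 2.55), and the other 9 members lay between -0.27 and 0.37.

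The genes whose values followed Vgll3 most closely were found over the 12 arrays after the mean of each tissue was taken off. They were sought among the 18080 genes tested in both tissues, less those with symbols of predicted or unnamed genes (Gm, Rik, LOC or accession-like). They were Tmeff1 (Pearson r = 0.972), Myo1c (0.97), Phf8 (0.967), Zfp697 (0.957) and Sptbn1 (0.956), with Spearman rho from 0.944 to 0.979. The arrays share their groups, so these coefficients carry the difference between the groups. The genes were picked for that pattern, and their values are given with no test. Tmeff1, which encodes a membrane protein with follistatin-like domains, had a difference of 1.51 in fat and 0.49 in ovary. Myo1c, a motor protein known in adipocytes for moving the glucose transporter to the membrane, had 0.81 in fat and 0.01 in ovary. Phf8, a histone demethylase, had 0.97 and 0.15.

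Of 24 genes listed as upstream of YAP and TAZ, 22 were tested in each tissue, and Stk3 was not analysed here. Vgll1, on the list although it is a vestigial-like gene and not an upstream one, was too dim. The list was not split by whether a gene activates or restrains the pathway, so its counts and median carry no direction for the pathway. In gonadal fat 3 of the 22 rose and 0 fell, beside 2.65% and 1.22% of all genes tested there, with a median difference of 0.13 beside -0.01 for all genes. Wwc2, of the KIBRA family of Hippo activators, had values of 6.55, 6.59 and 6.58 with DHT and 6.18, 6.11 and 6.19 with placebo. Its groups stood apart by more than their spread, and the difference was 0.41 (adjusted p = 0.0482, limma). Mob1a, whose protein activates the LATS kinases, was 7.48, 7.37 and 7.21 against 7.04, 6.82 and 6.89, a difference of 0.44 (adjusted p = 0.0879). Sav1, the scaffold of the MST kinases, was 8.37, 8.68 and 8.48 against 8.14, 8.003 and 8.08, a difference of 0.43 (adjusted p = 0.0891). Amot, which binds YAP and TAZ, missed the threshold with 0.60 (adjusted p = 0.102). Without DHT 2, without placebo 2 or without placebo 3 none of the 3 genes was called. Under quantile normalization Sav1 had 0.29 (adjusted p = 0.246, limma). It was not called under median centring or an intensity trend either (adjusted p = 0.103 and 0.102, limma). Mob1a was not called under median centring (adjusted p = 0.148, limma). SAM called none of the 3 genes, but its values cannot fall below the threshold of 0.10.

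In the ovary 0 of the 22 upstream genes were called with limma, beside 1.26% of all genes. A count of 0 is near that background, and the median difference was -0.00, as for all genes. An unadjusted p under 0.05 was found for 3, a cut for which no share of all genes is given here. The 4 with the smallest adjusted p were Wtip (0.14, adjusted p = 0.336), Rassf1 (0.13, adjusted p = 0.343), Sav1 (-0.45, adjusted p = 0.354) and Map4k4 (0.24, adjusted p = 0.472). Ovarian Sav1 was 8.06, 8.06 and 7.96 with DHT and 8.18, 8.36 and 8.91 with placebo, lower in each DHT-treated mouse and highest in placebo 3, as were the corpus luteum markers. The effects on Sav1 and Mob1a differed between fat and ovary by 0.89 and 0.51 (adjusted p = 0.052 and 0.0469, limma interaction). Without both oviduct-rich ovary arrays these differences were 0.92 and 0.52, and neither was called (adjusted p = 0.159 and 0.174).

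Of 22 target genes of YAP and TAZ, a list that includes Lats2, 21 were tested in fat, 20 in ovary, and Foxf2 was too dim in both. In fat 1 rose and 3 fell, beside 2.65% and 1.22% of all genes, and the median difference was 0.04 beside -0.01 for all genes. Ccdc80, a matrix protein also made by adipocytes, was 10.001, 9.82 and 9.98 with DHT and 8.72, 7.95 and 8.45 with placebo. The groups lay far apart, with a difference of 1.56 (adjusted p = 0.00752, limma). Igfbp3, which binds insulin-like growth factors, was 5.71, 5.74 and 5.49 against 7.28, 6.43 and 7.08, and fell by 1.28 (adjusted p = 0.0256). Gadd45a, a stress-response gene, was 5.81, 5.78 and 5.84 against 6.18, 6.36 and 6.36, and fell by 0.49 (adjusted p = 0.0401). Tgfb2, a growth factor of the TGF-beta family, was 4.52, 4.83 and 4.46 against 5.56, 5.13 and 5.05, and fell by 0.64 (adjusted p = 0.0924). None of these 4 groups of values overlapped between treatments. Ccdc80 was called without any 1 of the 6 fat arrays, Tgfb2 under none of these 6 omissions, and Igfbp3 and Gadd45a were not called without DHT 2 (adjusted p = 0.105 and 0.196) or without placebo 3 (adjusted p = 0.103 and 0.164).

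The classical targets Ccn2 (CTGF), Ccn1 (CYR61) and Ankrd1 had fat differences of -0.19, -0.07 and -0.01 (adjusted p = 0.438, 0.934 and 0.966, limma). In the ovary 0 of 20 target genes were called with limma, near the background of 1.26%. Their median difference was -0.03 beside -0.00 for all genes. An unadjusted p under 0.05 was found for 4, a cut for which no share of all genes is given here. Ovarian Ccn2 was 8.64, 7.76 and 7.86 with DHT and 6.54, 7.34 and 7.31 with placebo. The groups did not overlap, and the difference was 1.02 (adjusted p = 0.224). Crim1, which binds growth factors of the BMP family, was 9.33, 8.95 and 8.92 against 8.23, 8.35 and 8.66, a difference of 0.65 (adjusted p = 0.16). With all 12 arrays in 1 fit these 2 genes were called in the ovary (adjusted p = 0.0709 for Ccn2 and 0.0383 for Crim1). Rbms3 and Asap1 had ovarian differences of 0.20 and -0.47 (adjusted p = 0.291 and 0.351).

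**Figure D4:**
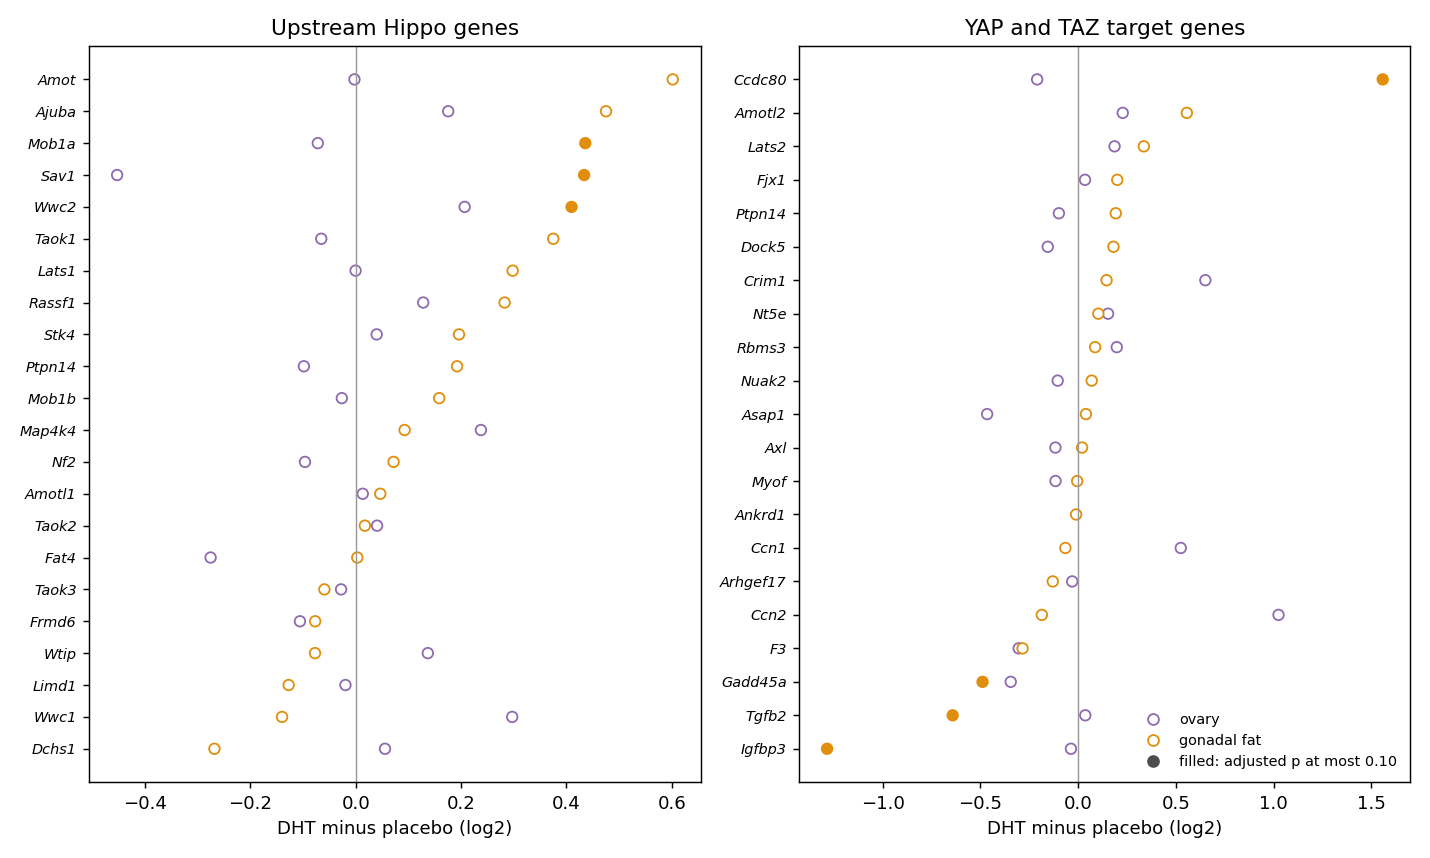
Difference between DHT-treated and placebo-treated mice (log2, x axis) for the upstream Hippo genes and the YAP and TAZ target genes tested in fat. Points are limma estimates in ovary (purple) and gonadal fat (orange), 3 arrays per group, and filled points had an adjusted p of at most 0.10. In fat 3 upstream genes rose, and of the targets Ccdc80 rose while Gadd45a, Tgfb2 and Igfbp3 fell. No point is filled for the ovary.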

How the data were processed

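The 12 Affymetrix arrays held RNA of ovary and gonadal fat, 3 arrays for each treatment and tissue. The authors deposited 1 log2 value per transcript cluster and array (0.698 to 13.2). MAS5 is named in the submitters' processing notes. How arrays were scaled is not given in these sources, and values were used as deposited. Precision is limited by the 3 arrays per group. Of 65929 clusters, 30638 carried 1 gene symbol, 2176 several and 33115 none, and only the first were named. A gene with several clusters was represented by the one of highest mean.

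Fat values of chromosomes 10 to 19 were re-paired by sorting the cluster names with the sign _ ahead of digits. Treatments were compared within each tissue, and the effects between tissues in 1 fit over 12 arrays, with limma 3.58.1 in R 4.3.3 (lmFit, eBayes). SAM, which the methods name, was an alternative. Genes above the array median in at least 3 of 6 arrays were tested. Tables and figures were made with Python 3.11.15, pandas 2.3.3 and matplotlib 3.10.9.

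The members and the gene lists were chosen with earlier results of these data known. Named were the 10 members, up to 4 genes per list and tissue by the smallest adjusted p, the 5 genes most like Vgll3, markers of the cell type lists, and Ccn1 and Ankrd1, which were chosen after their values were seen. After group means were taken off, ovary and fat arrays with the same replicate number correlated at r = 0.110 to 0.192 over 18080 genes. Those with other numbers correlated at -0.182 to 0.0314. The labels do not name the mouse, and what arrays with the same number shared was not tested. The main fit between tissues had no block. A fit with the replicate number within a treatment as a block was run as an alternative.

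The alternatives were quantile normalization, median centring, other filters, the mean of a gene's clusters, an intensity trend, SAM with 20 permutations, 1 fit over 12 arrays, a replicate block, a stricter threshold, the deposited order, an adipocyte covariate in the ovary, and leaving out arrays. Protein sequences were not used here.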

Additional observations from a re-analysis of the deposited data

Results flagged for a closer look

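The following results differed between gonadal fat and ovary by the interaction test over 12 arrays (limma, effect of DHT in fat minus effect in ovary on the log2 scale, adjusted over 18080 genes). Vgll3 differed by 1.68 (adjusted p = 0.00999). Among the target genes Ccdc80 differed by 1.77 (adjusted p = 0.00324), Igfbp3 by -1.25 (adjusted p = 0.0631) and Ccn2 by -1.21 (adjusted p = 0.0801). Among the upstream genes Sav1 differed by 0.89 (adjusted p = 0.052) and Mob1a by 0.51 (adjusted p = 0.0469). Without the ovary arrays DHT 3 and placebo 2, which hold most oviduct transcripts, Vgll3 and Ccdc80 were still called (adjusted p = 0.057 and 0.0206). Igfbp3, Ccn2, Sav1 and Mob1a were not (adjusted p = 0.165, 0.12, 0.159 and 0.174). Their differences there were -1.29, -1.46, 0.92 and 0.52, no smaller than with all arrays. Why these calls were lost was not tested. Each of them was also lost without some single arrays (limma). Examples are Igfbp3 without fat placebo 3 (adjusted p = 0.13) and Ccn2 without fat DHT 1 (adjusted p = 0.162). Others are Sav1 without fat DHT 2 (adjusted p = 0.119) and Mob1a without ovary placebo 3 (adjusted p = 0.118). Median centring lost Ccn2 (adjusted p = 0.102), and quantile normalization lost Sav1 (adjusted p = 0.104).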

How the results depend on the processing

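Vgll3 in gonadal fat was called under every alternative that could test it, with differences of 2.07 to 2.18 under other normalizations and 1.93 to 2.32 without 1 array (adjusted p = 0.00314 to 0.0254), and SAM gave 0.10, the smallest value its 20 permutations allow. Its difference between tissues was 1.51 to 1.90 without 1 array. In the deposited order Vgll3 and Lats2 could not be tested in fat. The count of members called in fat, 2, became 4 with all 12 arrays in 1 fit, 1 under quantile normalization, an intensity trend, SAM, the replicate block, a threshold of 0.05 or without any 1 array (range 1 to 1), and 0 in the deposited order. The count for the difference between tissues, 1, became 2 under median centring, 0 in the deposited order, and ranged from 1 to 2 without 1 array. In the ovary no member was called under any alternative, of which SAM called no gene at all.

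Upstream genes called in fat, 3, became 1 under median centring, no filter or a threshold of 0.05, 0 under SAM, 7 with 12 arrays in 1 fit and 5 with the replicate block, and ranged from 0 to 3 without 1 array. For the difference between tissues their count of 2 became 1 under quantile normalization, the deposited order or a threshold of 0.05, 0 without both oviduct-rich arrays, and 0 to 4 without 1 array. Target genes called in fat, 4, became 1 under SAM and 2 in the deposited order (1 to 4 without 1 array), in ovary 2 with 12 arrays in 1 fit (0 to 0 without 1 array), and for the difference between tissues, 3, 1 without both oviduct-rich arrays or at 0.05 (1 to 3 without 1 array).

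The sign turned for Vgll4 under quantile normalization (0.019 in ovary, -0.022 in fat, -0.040 for the difference between tissues) and without 1 array (-0.038 to 0.032, -0.0085 to 0.062 and -0.015 to 0.070), for Yap1 between tissues under quantile normalization (-0.037), and for Vgll2 in the deposited order (0.32 in fat, 0.23 between tissues). The cause was not tested, except that the deposited order sets other values beside the names.

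Over all genes the calls in ovary, 241, became 0 under SAM, 439 with 12 arrays, 3 with the replicate block, 5 without both oviduct-rich arrays, 21 with the adipocyte covariate, 87 at 0.05 and 25 to 197 without 1 array. In fat 745 became 456 under median centring, 59 under SAM, 1923 with 12 arrays, 1122 with the replicate block, 336 at 0.05 and 139 to 645 without 1 array. Between tissues 1110 became 327 without both oviduct-rich arrays, 531 at 0.05 and 524 to 2037 without 1 array. The higher share of these calls was 43.2% in ovary, 68.6% in fat and 75.4% between tissues as deposited, 51.7%, 61.7% and 62.0% under quantile normalization, and 30.5%, 84.2% and 89.5% under median centring, which moved the median of all genes between tissues to 0.13. The replicate numbers pair no treatments within a tissue (r = -0.475 to 0.33 over genes), so that block is given as counts only. The block for the replicate number within a treatment, over both tissues, changed no call of a member or listed gene between tissues (Vgll3 adjusted p = 0.0169, limma).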
